A study of Mus musculus with 45 samples.

Results

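The genes described here carry out the start of S phase and the copying of DNA. They are 43 genes, taken by symbol from a list of G1/S and replication genes, out of 13449 genes in the deposited table. Taking genes by symbol uses no measured value, but the list was chosen with earlier results of these data known. By role they comprise 10 genes of origin licensing, 6 of helicase activation, 2 encoding cyclin E, 8 of the polymerases and primase, 6 of the sliding clamp and its loader, 2 that process and join Okazaki fragments, 4 that supply deoxynucleotides, 4 that supply histones or assemble and mark new chromatin, and Clspn, which encodes the fork checkpoint adaptor claspin. The study measured poly(A) RNA of mouse fetal liver at E15.5 in mice heterozygous for a floxed Rpl5 or a floxed Rps19 gene, which encode a protein of the large and of the small ribosomal subunit. The groups were VavCre Rpl5flox/+ and VavCre Rps19flox/+, in which Vav regulatory sequences drive Cre in blood cells, and Rpl5flox/+ and Rps19flox/+ without VavCre, so every animal carried a floxed allele. After emetine treatment, which holds ribosomes on mRNA, magnetic beads enriched Kit+ cells for hematopoietic progenitors and then, from what was left, Ter119+ cells for maturing erythroid cells, and the cells were pooled by genotype. Each pool gave RNA of the whole cytoplasm and, in most cases, of the polysome fraction of a sucrose gradient, for 24 cytoplasm and 21 polysome libraries in all. Each of 14 of the 16 groups had 3 libraries, VavCre Rpl5flox/+ Kit+ polysomes had 1 and Rpl5flox/+ Ter119+ polysomes had 2.

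A cell prepares to copy its genome in G1, when the origin recognition complex, Cdc6 and Cdt1 load the MCM helicase on DNA. At the G1/S boundary, cyclin E with its kinase drives S phase entry, while Cdc45 and the GINS complex turn the loaded MCM ring into an active helicase, and polymerases alpha, delta and epsilon then copy the strands with Pcna as their clamp. Many of these genes are bound by E2F factors and peak together near the G1/S boundary. Early erythroid cells of the fetal liver divide rapidly, and replication genes are switched off as they mature to red cells.

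Values are normalized counts, meaning reads divided by the authors' size factors, which did not follow read depth alone. The factor was 0.816 at 57.5 M reads in Rpl5flox/+ Ter119+ cytoplasm replicate 2. It was 2.41 at 53.6 M in the library labelled VavCre Rpl5flox/+ of that number, and 3.98 at 38.9 M in Rpl5flox/+ Kit+ cytoplasm replicate 1. A normalized count is therefore not a share of reads. Changes are differences of the deposited log2 values, a scale that understates the change of genes with few reads, given ± SE. A gene is called changed where its p-value, adjusted over all genes tested, was below 0.05. Cytoplasm libraries held 22.9 to 70.1 M reads in Kit+ cells and 45.0 to 123 M in Ter119+ cells, and each member had reads in each of them. Polysome libraries held 1.01 to 37.6 M reads in Kit+ cells and 1.02 to 39.8 M in Ter119+ cells. Of the polysome libraries, 4 had under 2 M reads, and up to 6 members in a Kit+ library and 11 in a Ter119+ library had none. Rpl5 had 437 to 579 normalized counts in VavCre Rpl5flox/+ Kit+ cytoplasm, against 930.3 to 1112 in Rpl5flox/+ Kit+ cytoplasm. Among Ter119+ cytoplasm libraries, those labelled VavCre Rpl5flox/+ had 455 to 549 normalized counts of Rpl5, against 295 to 459 in Rpl5flox/+, so Rpl5 was not lower there, and they are called by their label in what follows. Rps19 had 11749.6 to 14495 normalized counts in VavCre Rps19flox/+ Kit+ cytoplasm, against 16201 to 20144 in Rps19flox/+. In Ter119+ cytoplasm the Rps19 ranges overlapped, 10787 to 13710 in VavCre Rps19flox/+ against 13048 to 15378 in Rps19flox/+. As a check of the bead selection, Kit averaged 45.4 and 41.8 normalized counts in Ter119+ cytoplasm of the Rpl5flox/+ and Rps19flox/+ controls, against 1732 and 1441 in their Kit+ cytoplasm.

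Promoter sequences are shown for 7 genes whose values are given in the comparisons that follow, as examples with and without E2F letters. Each is given as 300 bases around an annotated start, 250 before it and 50 after it. Bases are read 5′ to 3′ on the gene's strand from RefSeq on GRCm38.p6. The start used need not be the gene's outermost one. The Rfc1 and Cdc6 windows lie inside their genes, whose 5′ ends are at chr5:65338617 and chr11:98907709. Capitals mark letters of an E2F motif, searched on both strands as TTTCCCGC, TTTCGCGC, TTTGCCGC or TTTGGCGC. Cdc6 lies at chr11:98907901-98908200 on the plus strand, Mcm5 at chr8:75109259-75109558 on the plus strand, the upstream one of the Mcm7 promoters at chr5:138171834-138172133 on the minus strand, Ccne1 at chr7:38107441-38107740 and Pcna at chr2:132253131-132253430 on the minus strand, Rfc1 at chr5:65335590-65335889 on the minus strand and Rrm2 at chr12:24708004-24708303 on the plus strand.
Cdc6: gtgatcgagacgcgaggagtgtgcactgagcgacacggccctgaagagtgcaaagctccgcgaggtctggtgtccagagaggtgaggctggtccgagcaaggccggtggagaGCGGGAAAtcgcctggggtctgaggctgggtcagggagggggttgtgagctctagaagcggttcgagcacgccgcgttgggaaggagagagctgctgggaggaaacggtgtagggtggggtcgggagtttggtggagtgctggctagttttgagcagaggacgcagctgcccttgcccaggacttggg
Mcm5: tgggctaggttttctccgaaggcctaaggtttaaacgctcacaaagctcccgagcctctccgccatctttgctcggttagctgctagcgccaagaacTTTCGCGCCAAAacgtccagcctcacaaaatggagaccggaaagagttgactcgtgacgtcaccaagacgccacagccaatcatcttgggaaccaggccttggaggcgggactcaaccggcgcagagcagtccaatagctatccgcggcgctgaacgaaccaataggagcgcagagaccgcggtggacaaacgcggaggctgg
Mcm7: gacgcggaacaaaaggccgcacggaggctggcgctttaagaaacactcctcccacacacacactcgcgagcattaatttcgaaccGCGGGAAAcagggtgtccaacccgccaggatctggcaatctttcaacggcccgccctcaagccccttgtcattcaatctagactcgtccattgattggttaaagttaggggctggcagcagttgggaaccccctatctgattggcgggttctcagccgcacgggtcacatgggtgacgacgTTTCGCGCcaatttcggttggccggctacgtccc
Ccne1: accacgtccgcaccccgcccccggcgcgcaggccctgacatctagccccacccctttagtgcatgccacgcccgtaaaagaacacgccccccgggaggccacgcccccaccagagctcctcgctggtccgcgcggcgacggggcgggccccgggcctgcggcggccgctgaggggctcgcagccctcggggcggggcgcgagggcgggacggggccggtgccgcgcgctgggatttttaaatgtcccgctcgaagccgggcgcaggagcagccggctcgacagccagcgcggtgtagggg
Pcna: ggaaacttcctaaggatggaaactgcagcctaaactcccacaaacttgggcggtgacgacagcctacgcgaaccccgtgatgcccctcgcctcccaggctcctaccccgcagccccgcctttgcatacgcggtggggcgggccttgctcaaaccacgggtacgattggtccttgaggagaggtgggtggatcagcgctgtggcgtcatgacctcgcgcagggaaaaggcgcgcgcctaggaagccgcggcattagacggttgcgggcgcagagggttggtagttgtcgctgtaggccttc
Rfc1: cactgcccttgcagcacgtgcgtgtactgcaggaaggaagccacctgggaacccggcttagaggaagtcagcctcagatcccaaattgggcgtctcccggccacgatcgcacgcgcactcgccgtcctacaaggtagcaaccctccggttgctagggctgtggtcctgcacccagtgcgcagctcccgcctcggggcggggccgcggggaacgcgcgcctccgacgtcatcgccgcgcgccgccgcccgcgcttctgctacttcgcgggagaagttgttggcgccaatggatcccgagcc
Rrm2: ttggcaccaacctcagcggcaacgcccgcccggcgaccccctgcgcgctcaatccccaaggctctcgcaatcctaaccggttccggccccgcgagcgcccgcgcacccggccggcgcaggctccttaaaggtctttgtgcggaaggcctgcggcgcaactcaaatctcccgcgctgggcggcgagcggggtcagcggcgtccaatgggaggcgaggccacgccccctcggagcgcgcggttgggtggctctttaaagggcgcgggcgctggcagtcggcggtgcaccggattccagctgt
Cdc6 held 1 match, Mcm5 held 2 that overlap, this Mcm7 promoter held 2, and the Ccne1, Pcna, Rfc1 and Rrm2 windows held none. RefSeq promoters were matched for 35 of the 43 members, 41 promoters in all, and 15 of these (36.6%) held E2F letters, against 744 of 32851 RefSeq promoters of the same length (2.26%). CCAAT, the NF-Y motif, stood in 24 member promoters (58.5%), against 37.4% of all promoters. The cell cycle homology letters TTTGAA or TTTAAA stood in 10 (24.4%), against 27.6%. A match describes these letters only.

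In Kit+ progenitors of the Rpl5 line, replication RNA was lower in VavCre Rpl5flox/+ than in Rpl5flox/+ across almost the whole machinery. Of the 43 members 37 fell and 0 rose, where 16.4% of all genes tested fell and 20.8% rose. The median log2 change of the members was -0.50, against 0.03 over all genes tested. For 39 members every VavCre Rpl5flox/+ library lay below every Rpl5flox/+ library, as it did for 23.4% of all genes. In bulk RNA of this kind, fewer cells of a type and less RNA per cell cannot be told apart.

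Cdc6, which helps load MCM on origins, had 807, 782 and 894 normalized counts in the VavCre Rpl5flox/+ libraries, against 1797, 1659 and 1767 in the Rpl5flox/+ libraries, a log2 change of -1.06 ± 0.08 (SE, adjusted p = 6.35e-07). Each VavCre library was far below each control library. Ccne1, which encodes cyclin E1, had 812, 741 and 880.2 normalized counts in the VavCre libraries, against 1797, 1636 and 1776 in the controls, and its log2 change was -1.09 ± 0.09 (SE, adjusted p = 1.51e-06). The 2 groups were again far apart. Pcna, the sliding clamp, had 5399.6, 5268 and 5417 normalized counts in the VavCre libraries, against 10332, 9179.6 and 9138 in the controls, with a log2 change of -0.83 ± 0.07 (SE, adjusted p = 3.18e-06). Mcm7, a subunit of the helicase, had 2812, 2858 and 3054 normalized counts in the VavCre libraries, against 5430.0, 4678 and 5515 in the controls, with a log2 change of -0.83 ± 0.08 (SE, adjusted p = 6.96e-06). In both genes the 3 VavCre libraries were the lowest and lay close together.

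By role, 9 of the 10 licensing genes fell, with a median change of -0.62 over the 10; the exception was Mcm2 (-0.27). All 6 helicase activation genes fell (median -0.45), led by Gins3 (-0.85 ± 0.12), a GINS subunit. Both cyclin E genes fell, Ccne2 by 0.76 on the log2 scale. Fen1, which trims Okazaki fragment flaps, changed by -0.97 ± 0.10, and Lig1, which seals them, by -0.66 ± 0.09. All 4 genes of nucleotide supply fell (median -0.65), among them the ribonucleotide reductase subunits Rrm1 (-0.77) and Rrm2 (-0.65). The 4 chromatin and histone genes also fell (median -0.59), led by Uhrf1 (-0.86 ± 0.09), which brings maintenance methylation to new DNA. The polymerases moved least, with 4 of 8 lower and a median of -0.28. Pola2, Prim2, Pole2 and Pold1 were called, while the catalytic subunits of polymerases alpha and epsilon had changes of -0.16 (Pola1) and -0.11 (Pole), and Prim1 and Pold2 had -0.24 and 0.05. Of the clamp and loader genes Rfc1 (-0.29) was the one not called.

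**Figure D1:**
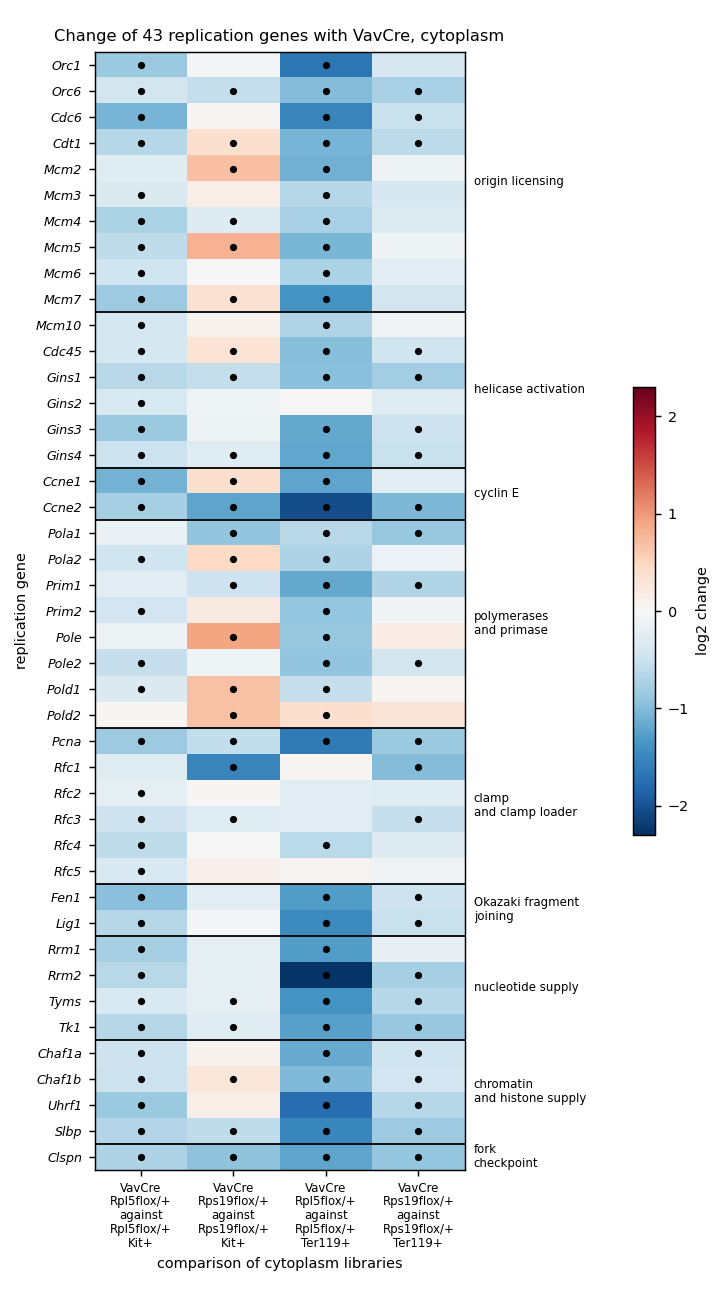
Log2 change of each of the 43 genes (rows, grouped by role) in cytoplasm, VavCre minus control, in the 4 comparisons of genotype (columns); colour gives the change and a black dot marks an adjusted p below 0.05. Both Rpl5 columns are lower in nearly every row, the Rps19 Kit+ column holds 11 higher and 14 lower genes, and the Rps19 Ter119+ column holds 24 lower genes and 0 higher.

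The make-up of the Rpl5 Kit+ libraries moved with these genes, and its part in the result was not tested. All 13 erythroid markers in the table fell, with summed normalized counts of 63474 to 73139 in VavCre Rpl5flox/+ and 171566 to 230547 in Rpl5flox/+. Of 16 granulocyte and monocyte markers 12 rose, with sums of 60705 to 119309 in VavCre Rpl5flox/+ and 30744 to 34469 in Rpl5flox/+. Of 10 progenitor markers 7 rose, all 9 B-lymphoid markers fell, and 11 of 12 hepatocyte markers rose, with hepatocyte sums of 22422 to 41405 against 5787 to 18483. No marker on these lists was at 0 in all libraries of either group. All 10 p53 target genes rose, including Cdkn1a, an inhibitor of cyclin-dependent kinases, which averaged 2966 normalized counts in VavCre Rpl5flox/+ and 79.6 in Rpl5flox/+.

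In Kit+ progenitors of the Rps19 line the same machinery split. In VavCre Rps19flox/+ against Rps19flox/+, 11 members rose and 14 fell, where 27.6% of all genes rose and 26.1% fell, so the share of members called, 25 of 43, was close to the 53.7% of all genes. The median change was -0.02, against 0.01 over all genes. The members' summed normalized count was alike, 100122, 95779 and 97065 in VavCre Rps19flox/+ and 97082, 94296 and 94514 in Rps19flox/+. In the Rpl5 line the same sums were 58494, 59457 and 62865 in VavCre Rpl5flox/+ and 97314, 86807 and 91278 in Rpl5flox/+.

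Rfc1, the large subunit of the clamp loader, had 234, 409 and 261 normalized counts in the VavCre Rps19flox/+ libraries, against 902, 854 and 833 in the Rps19flox/+ libraries, a log2 change of -1.51 ± 0.15 (SE, adjusted p = 5.78e-06). The highest VavCre library was well below the lowest control. Mcm5 had 8022, 6634 and 6701 normalized counts in the VavCre libraries, against 3797, 4288 and 4090.0 in the controls, with a log2 change of 0.80 ± 0.09 (SE, adjusted p = 1.66e-05). It stood higher in each VavCre library, and in the replicate 1 library of VavCre most of all. Pcna had 6268, 6993 and 6898 normalized counts in the VavCre libraries, against 10354, 9688 and 9720.1 in the controls (log2 change -0.56 ± 0.07, adjusted p = 4.48e-05). Pole, the catalytic subunit of polymerase epsilon, had 685, 783 and 866 normalized counts in the VavCre libraries, against 364, 429.9 and 429 in the controls (log2 change 0.91 ± 0.12, adjusted p = 4.99e-05). The groups did not overlap for either gene, Pcna being lower and Pole higher in VavCre Rps19flox/+.

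Members of the same complex moved in opposite directions in this comparison. Of the MCM genes, Mcm2 (0.70 ± 0.11), Mcm5 and Mcm7 (0.36) rose and Mcm4 (-0.30) fell. In the polymerase alpha and primase complex, Pola2 rose (0.47 ± 0.09) and Pola1 (-0.92 ± 0.18) and Prim1 (-0.48) fell. Of the cyclin E genes, Ccne1 rose (0.37 ± 0.09) and Ccne2 fell (-1.21 ± 0.20). The polymerase delta subunits Pold1 and Pold2 both rose by 0.68, and so did Cdt1 (0.37), Cdc45 (0.32) and the chromatin assembly subunit Chaf1b (0.27). Among those that fell were claspin, Clspn (-0.93 ± 0.17), the histone mRNA binding protein gene Slbp (-0.58 ± 0.09), Orc6 and Gins1 (both -0.54) and the nucleotide genes Tk1 (-0.28) and Tyms (-0.22). Cdc6, the member with the smallest p in the Rpl5 line, had a change of 0.05 here and was not called. Without the Rps19flox/+ Kit+ replicate 1 library the split was 11 higher and 10 lower.

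Here too other cell types moved, and their part was not tested. All 16 granulocyte and monocyte markers fell, with sums of 4141 to 8689 in VavCre Rps19flox/+ and 20836 to 29383 in Rps19flox/+, which is opposite in direction to the Rpl5 line. Of 10 progenitor markers 7 fell (sums 3834 to 4672 against 4826 to 5639), and of 13 erythroid markers 2 rose and 5 fell, with sums of 92826 to 153984 against 157616 to 268066. All 9 B-lymphoid markers fell, and of 10 megakaryocyte markers 1 rose and 7 fell. All 10 p53 targets rose, and Cdkn1a averaged 4331 normalized counts in VavCre Rps19flox/+ and 64.9 in Rps19flox/+.

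The difference between the lines in Kit+ cells was tested as the Rpl5 change minus the Rps19 change, and 29 members were lower and 2 higher, where 25.0% of all genes were lower and 23.2% higher. The median difference was -0.49 over the members and 0.04 over all genes. The largest by adjusted p was Ccne1, with a difference of -1.45 ± 0.13 (SE, adjusted p = 5.66e-06), from the opposite changes given above. Mcm5 (log2 difference -1.39 ± 0.13, adjusted p = 1.11e-05) and Mcm7 (log2 difference -1.19 ± 0.12, adjusted p = 1.2e-05) likewise fell in VavCre Rpl5flox/+ and rose in VavCre Rps19flox/+. Mcm5 had 2339, 2466 and 2739.7 normalized counts in VavCre Rpl5flox/+, against 3811, 3466 and 4033 in Rpl5flox/+. In the Rps19 line, Mcm7 had 7954, 7064 and 6896 normalized counts in VavCre Rps19flox/+, against 5869.7, 5738 and 5446 in Rps19flox/+. All VavCre libraries lay outside the range of their own controls, below it in the first case and above it in the second. Cdc6 differed by -1.11 ± 0.11 (SE, adjusted p = 1.23e-05) between the lines. It had 2026, 1821 and 1835 normalized counts in VavCre Rps19flox/+, against 1819, 1770.0 and 1901 in Rps19flox/+, groups that overlap. Rfc1 (1.22 ± 0.22) and Pola1 (0.75 ± 0.26) differed the other way, being lower in the Rps19 line. These differences use the same libraries as the comparisons within each line.

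**Figure D2:**
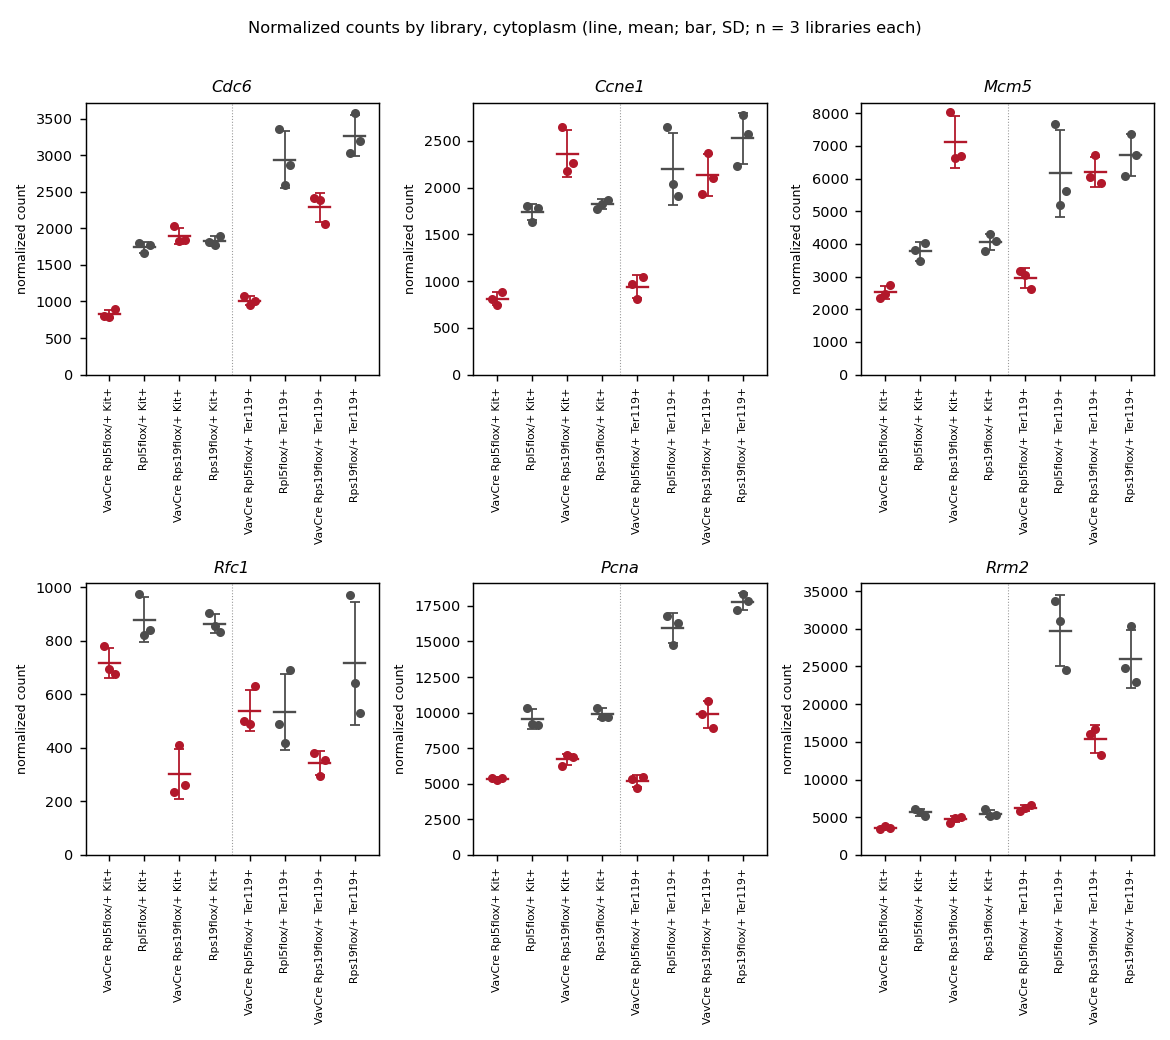
Normalized counts of Cdc6, Ccne1, Mcm5, Rfc1, Pcna and Rrm2 in each cytoplasm library (points), with the mean (line) and SD (bar) of 3 libraries a group, VavCre in red and control in grey, Kit+ left and Ter119+ right of the dotted line. In Kit+ cells Cdc6 and Ccne1 are low in VavCre Rpl5flox/+ and not in VavCre Rps19flox/+, and Rfc1 is lowest in VavCre Rps19flox/+; Pcna is lower in all 4 VavCre groups than in their controls.

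In Ter119+ cells, normalized counts of replication genes were lower in the libraries labelled VavCre Rpl5flox/+ than in Rpl5flox/+ in nearly every role. Of the 43 members 37 fell and 1 rose, where 30.1% of all genes fell and 35.3% rose. The median change was -1.04, against 0.16 over all genes. The members' summed normalized count was 64026, 60043 and 63114 in the libraries labelled VavCre Rpl5flox/+, against 178732, 144312 and 145760 in Rpl5flox/+. As a share of all reads, the members together overlapped between the groups. They took 173042, 144775 and 187078 of 50.0, 53.6 and 50.9 M reads in the libraries labelled VavCre Rpl5flox/+. In Rpl5flox/+ they took 212119, 117705 and 227271 of 58.8, 57.5 and 54.0 M.

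Rrm2, the small subunit of ribonucleotide reductase, had 5791, 6171 and 6580.0 normalized counts in the libraries labelled VavCre Rpl5flox/+, against 33721, 30988 and 24591 in Rpl5flox/+, a log2 change of -2.25 ± 0.16 (SE, adjusted p = 9.7e-08). This was the lowest change of any member, and the groups were separated by a wide gap. Pcna had 5325, 4731 and 5512 normalized counts in the VavCre libraries, against 16805, 14785 and 16267 in the controls (log2 change -1.62 ± 0.12, adjusted p = 1.64e-07). Slbp, which binds the ends of histone mRNAs, had 2548, 2532 and 2975 normalized counts in the VavCre libraries, against 7665, 7491 and 7631 in the controls (log2 change -1.50 ± 0.11, adjusted p = 1.64e-07). In both genes the 3 libraries of each group lay close to each other and far from the other group. Cdc6 had 1071, 952 and 1004 normalized counts in the VavCre libraries, against 3355, 2592 and 2863 in the controls (log2 change -1.52 ± 0.13, adjusted p = 3.41e-07). Its replicate 1 was the highest library of both groups.

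All 10 licensing genes fell, with Orc1 (-1.66 ± 0.17) the lowest of them, as did 5 of 6 helicase activation genes, both cyclin E genes, 7 of 8 polymerase and primase genes, both Okazaki fragment genes, and all 4 genes each of nucleotide supply and of chromatin and histone supply (both medians -1.33). Ccne2 had a change of -2.05 ± 0.25 and Uhrf1 of -1.75 ± 0.17. The clamp loader was the exception. Of the 5 Rfc genes only Rfc4 fell (-0.62), and Rfc1 (0.04), Rfc2 (-0.25), Rfc3 (-0.25) and Rfc5 (0.06) were not called, nor was Gins2 (0.01). Pold2, a small subunit of polymerase delta, rose, with 806, 686 and 706 normalized counts in the VavCre libraries, against 506, 598 and 557 in the controls (log2 change 0.39 ± 0.12, adjusted p = 0.00939). Its lowest VavCre library was above its highest control library.

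In these libraries all 10 progenitor markers rose, with sums of 4384 to 4917 normalized counts against 967 to 1429.6 in Rpl5flox/+, and Kit itself averaged 777 against 45.4 normalized counts. All 13 erythroid markers fell, with sums of 3.67 to 6.47 M normalized counts against 14.2 to 34.8 M, and the red cell anion exchanger gene Slc4a1 averaged 71689 against 601063. Of 16 granulocyte and monocyte markers 14 rose, with sums of 57406 to 117432 against 10879 to 20691, and 9 p53 targets rose, Cdkn1a averaging 7918 against 135 normalized counts. The part of these shifts in the members' change was not tested. Rescaling the libraries to each other moved the median change of all genes to 0.30 and that of the members to -0.90.

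In Ter119+ cells of the Rps19 line, normalized counts of replication genes were lower in VavCre Rps19flox/+ than in Rps19flox/+, and no member rose. As a share of all reads, the members together overlapped between these groups too. They took 214693, 286800 and 204500 of 53.2, 65.1 and 56.6 M reads in VavCre Rps19flox/+. In Rps19flox/+ they took 472701, 257675 and 177377 of 123, 58.2 and 45.0 M. Of the 43 members 24 fell and 0 rose, where 13.3% of all genes fell and 12.5% rose, and the median change was -0.45 against -0.03. For 31 members every VavCre library lay below every control library, as for 22.1% of all genes. Without the VavCre Rps19flox/+ Ter119+ replicate 3 library 12 members fell, and without any other single library up to 21.

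Tk1, the thymidine kinase that salvages thymidine in S phase, had 1666, 1837 and 1524 normalized counts in VavCre Rps19flox/+, against 2897, 2978 and 3311 in Rps19flox/+, a log2 change of -0.87 ± 0.11 (SE, adjusted p = 0.000163). All VavCre libraries were below all controls. Slbp had 4513, 4948 and 4154 normalized counts in the VavCre libraries, against 8167, 8383 and 7648 in the controls (log2 change -0.83 ± 0.11, adjusted p = 0.000272). Pcna had 9927, 10812 and 8902 normalized counts in the VavCre libraries, against 17178, 18358 and 17862 in the controls (log2 change -0.85 ± 0.12, adjusted p = 0.000381). Orc6, a small subunit of the origin recognition complex, had 1299, 1394 and 1136 normalized counts in the VavCre libraries, against 2002, 2179 and 2285 in the controls (log2 change -0.75 ± 0.12, adjusted p = 0.000884). In all 3 of these genes the VavCre replicate 3 library was the lowest, and the groups did not overlap.

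Nucleotide supply fell in 3 of its 4 genes, Tk1, Tyms (-0.65) and Rrm2 (-0.76 ± 0.16). Helicase activation fell in 4 of 6 genes beside Gins2 (-0.28) and Mcm10 (-0.09), with Gins1 at -0.80 ± 0.16. The helicase itself did not pass the test in any of its 6 genes Mcm2 to Mcm7, whose changes ran from -0.42 to -0.11. Ccne2 fell (-1.04 ± 0.25) and Ccne1 was not called (-0.24). Rfc1 fell again (-0.99 ± 0.22), with 379.8, 294 and 354 normalized counts in the VavCre libraries, against 971, 643 and 531 in the controls. Its control libraries spread widely, with replicate 1 far above the others, and the highest VavCre library was still below the lowest control. Pola1 (-0.87 ± 0.26) and Clspn (-0.89 ± 0.23) fell as they had in Kit+ cells. Of 13 erythroid markers 2 fell, with sums of 9.90 to 10.9 M normalized counts in VavCre Rps19flox/+ and 17 to 18.2 M in Rps19flox/+, of 16 granulocyte and monocyte markers 11 fell (2423 to 4319 against 10257 to 21240), and of 10 progenitor markers 2 rose and 3 fell (1306 to 1590.0 against 978 to 1243). The B-lymphoid genes Ebf1 and Pax5 were at 0 in VavCre Rps19flox/+ Ter119+ cytoplasm, and of 9 B-lymphoid markers 6 were tested and 3 fell (sums 9.39 to 28.0 normalized counts against 129 to 255). Of 9 macrophage markers 6 fell (600.4 to 1011 against 1196 to 3824), of 10 megakaryocyte markers 9 were tested and 5 fell (806 to 904 against 890.3 to 1607), and 0 of 12 hepatocyte markers were called. All 10 p53 targets rose (median 2.69), Cdkn1a averaging 11119 normalized counts in VavCre Rps19flox/+ and 119 in Rps19flox/+. The part of these in the result was not tested.

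Between the lines in Ter119+ cells, 24 members had a lower Rpl5 than Rps19 change and 1 a higher one, where 20.9% and 20.5% of all genes did, with a median difference of -0.60 against 0.10. Rrm2 differed by -1.50 ± 0.23 (SE, adjusted p = 0.000238). It had 16014, 16740.5 and 13277 normalized counts in VavCre Rps19flox/+, against 24791, 30358 and 22937 in Rps19flox/+, so it fell in both lines and further in the libraries labelled VavCre Rpl5flox/+. Cdc6 differed by -1.01 ± 0.18 (SE, adjusted p = 0.000676), with 2412, 2388 and 2058 normalized counts in VavCre Rps19flox/+, against 3025, 3571 and 3191 in Rps19flox/+. Orc1 differed by -1.28 ± 0.24 (SE, adjusted p = 0.00107), with 276, 199 and 246 normalized counts in the libraries labelled VavCre Rpl5flox/+, against 816, 633 and 945 in Rpl5flox/+. In the Rps19 line Orc1 had 665, 657 and 515 in VavCre Rps19flox/+ and 758, 865 and 785 in Rps19flox/+, and it was not called there. Fen1 differed by -0.82 ± 0.16 (SE, adjusted p = 0.00142), with 1941, 1790.0 and 2008 normalized counts in the libraries labelled VavCre Rpl5flox/+, against 5171, 4589 and 4349 in Rpl5flox/+. The Fen1 groups were well separated in the Rpl5 line, and in the Rps19 line Fen1 fell by 0.47. Rfc1 was the member with a difference the other way (1.03 ± 0.32).

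**Figure D3:**
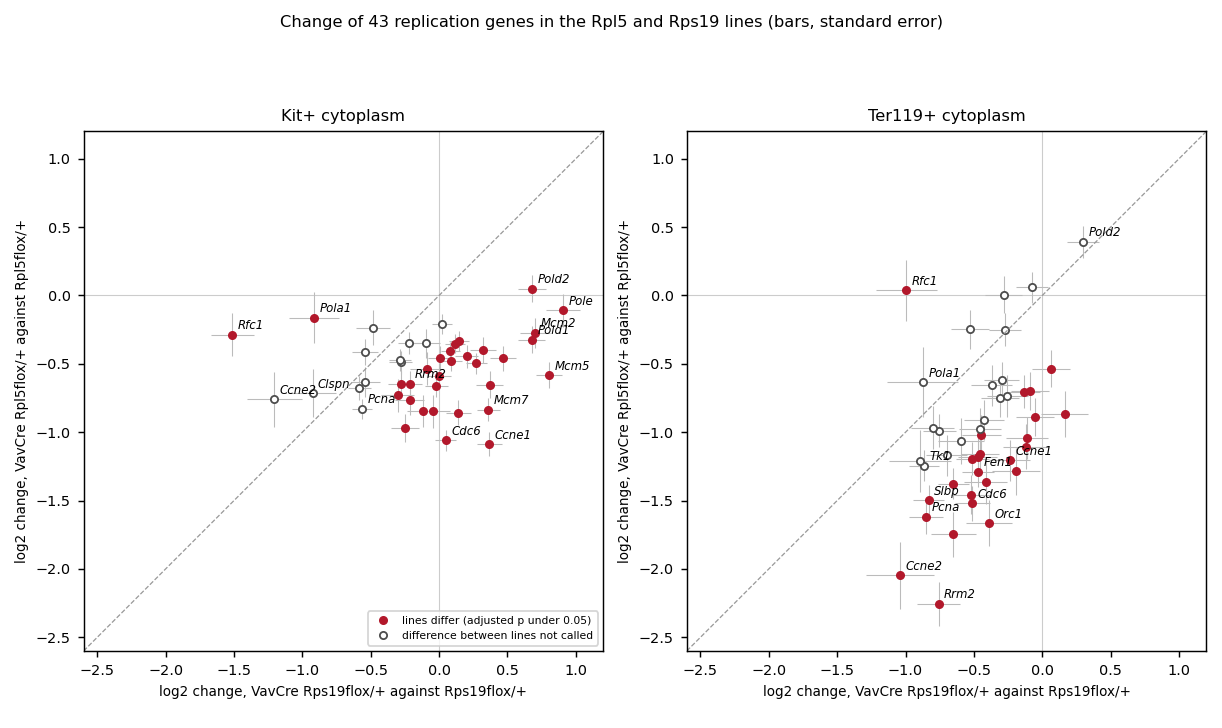
Log2 change in cytoplasm of each of the 43 genes in the Rpl5 line (vertical) against the Rps19 line (horizontal), Kit+ left and Ter119+ right, with SE bars; the dashed line marks equal change and filled red points are genes whose change differed between the lines at an adjusted p below 0.05. The Rpl5 change lies below the Rps19 change for 37 of 43 genes in Kit+ cells and 36 of 43 in Ter119+ cells. Over all genes tested it does so for 5244 of 10908 in Kit+ cells and 5039 of 10939 in Ter119+ cells.

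Across the members the changes of the 2 lines were weakly alike in Kit+ cells (Pearson r 0.15, Spearman rho 0.19 over 43 genes) and more so in Ter119+ cells (0.47 and 0.47). Over all genes tested the values were 0.07 and -0.03 in Kit+ cells and 0.41 and 0.43 in Ter119+ cells. Genes are not independent replicates, and the values describe these libraries only. Counting calls over the 4 cytoplasm comparisons, 9 members fell in all 4. They were Orc6, Gins1, Gins4, Ccne2, Pcna, Tyms, Tk1, Slbp and Clspn, drawn from 7 of the 9 roles. Another 8 fell in every comparison but Rps19 Kit+, namely Cdc6, Gins3, Pole2, Fen1, Lig1, Rrm2, Chaf1a and Uhrf1. There were 7 that fell in both Rpl5 comparisons and were called in neither Rps19 one, Orc1, Mcm3, Mcm6, Mcm10, Prim2, Rfc4 and Rrm1. The 8 members Cdt1, Cdc45, Chaf1b, Mcm5, Mcm7, Ccne1, Pola2 and Pold1 fell in both Rpl5 comparisons and rose in Rps19 Kit+ cells, and the first 3 of them fell in Rps19 Ter119+ cells. Rfc1 alone fell in both Rps19 comparisons and in neither Rpl5 comparison. Of all genes, 16.4% fell in Rpl5 Kit+, 26.1% in Rps19 Kit+, 30.1% in Rpl5 Ter119+ and 13.3% in Rps19 Ter119+ cells. The share of all genes with each joint pattern was not counted, so the pattern counts describe the members only.

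The same changes can be split by the promoter letters shown above. In Rpl5 Kit+ cells, 14 of the 15 members with E2F letters in a promoter fell, with a median of -0.65, and 16 of the 20 without fell, with a median of -0.47. In Rps19 Kit+ cells the 15 with the letters had a median of 0.00 and the 20 without -0.11, and in Ter119+ cells the medians were -1.06 and -1.13 in the Rpl5 line and -0.47 and -0.45 in the Rps19 line. The strand used in counting is not stated in the sources used here, so reads of 12 members that overlap another gene of the table, among them Mcm7, Cdc45, Ccne2, Fen1, Lig1 and Tk1, may include that gene's, and Pcna and Tyms have pseudogenes by symbol; these values are uncertain to that extent.

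The changes were then compared between cell types within each line, as the Ter119+ minus the Kit+ change, which reuses the same libraries. In the Rpl5 line 22 members were lower and 1 higher, where 22.6% of all genes were lower and 25.8% higher. Nucleotide and histone supply led, with Rrm2 at -1.61 ± 0.18 (SE, adjusted p = 4.89e-07), Tyms at -1.03 ± 0.13 (SE, adjusted p = 2.41e-06) and Slbp at -0.82 ± 0.13 (SE, adjusted p = 3.08e-05). Tyms, thymidylate synthase, had 1546, 1336 and 1431 normalized counts in the Ter119+ libraries labelled VavCre Rpl5flox/+, against 4025, 3719.8 and 3513 in Rpl5flox/+, and in Kit+ cells 1218, 1242 and 1235 in VavCre Rpl5flox/+ and 1752, 1549 and 1436 in Rpl5flox/+. The gap between the groups was much wider in Ter119+ cells. The clamp loader gene Rfc5 (0.41) was the 1 higher member. In the Rps19 line 17 members were lower and 0 higher, where 8.35% of all genes were lower and 3.93% higher. They included genes that had risen in Kit+ cells, Mcm5 (log2 difference -0.92 ± 0.18, adjusted p = 0.00356), Cdt1 (log2 difference -0.96 ± 0.20, adjusted p = 0.0049) and Chaf1b (log2 difference -0.72 ± 0.16, adjusted p = 0.00617). Cdt1, which brings MCM to origins, had 1942, 2215 and 2015 normalized counts in VavCre Rps19flox/+ Ter119+ cells, against 2669, 3295 and 3408 in Rps19flox/+ Ter119+ cells, and in Kit+ cells 3048, 2682 and 2699.5 in VavCre Rps19flox/+ and 2013, 2373 and 2134 in Rps19flox/+. Its VavCre libraries were below the controls in Ter119+ cells and above them in Kit+ cells. The Rps19 count fell to 10 without the Rps19flox/+ Kit+ replicate 1 library and to 11 without VavCre Kit+ replicate 1, Rps19flox/+ Ter119+ replicate 2 or VavCre Ter119+ replicate 3.

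In control animals, normalized counts of most replication genes were higher in Ter119+ than in Kit+ cytoplasm. As a share of all reads, the members together were lower in every Ter119+ control library than in every Kit+ one. In the Rpl5flox/+ replicate 1 libraries they took 212119 of 58.8 M reads in Ter119+ and 387787 of 38.9 M in Kit+ cytoplasm. In those of Rps19flox/+ they took 472701 of 123 M and 404723 of 40.2 M. Over the 6 control libraries of each cell type, 32 members were higher and 5 lower in Ter119+ cytoplasm, where 36.3% of all genes were higher and 44.0% lower, and the median difference was 0.50 against -0.14. Rrm2 had 22937 to 33721 (median 27574) normalized counts in Ter119+ cells and 5102 to 6153 (median 5452) in Kit+ cells, a difference of 2.31 ± 0.09 (SE, adjusted p = 2.37e-16). Tyms had 3513 to 4300.4 (median 3872) in Ter119+ cells and 1436 to 1752 (median 1635) in Kit+ cells (log2 difference 1.26 ± 0.06, adjusted p = 4.17e-14). Slbp had 7491 to 8383 (median 7656) in Ter119+ cells and 3768 to 4644 (median 4035) in Kit+ cells (log2 difference 0.94 ± 0.07, adjusted p = 9.6e-12). None of these genes had libraries that overlapped between the cell types. Ccne2 (1.69 ± 0.17), Orc1 (0.94 ± 0.11) and Gins4 (0.87 ± 0.07) were also higher. The 5 lower were Pold2 (-0.68 ± 0.07), the loader genes Rfc1 and Rfc5 (both -0.52) and Rfc3 (-0.26), and Gins2 (-0.29). Apart from Rfc1 in the Rps19 line and Rfc3 there, none of these 5 fell in VavCre Ter119+ cells of either line. Markers of other cells moved too. All 13 erythroid, 12 hepatocyte and 9 macrophage markers were higher in Ter119+ cells, with medians of 5.01, 1.03 and 2.13, and all 10 progenitor and 9 B-lymphoid markers were lower, with medians of -1.81 and -2.34. Of 16 granulocyte and monocyte markers 4 were higher and 8 lower. Hepatocyte sums were 7141 to 40250.0 normalized counts in Ter119+ controls and 3713 to 18483 in Kit+ controls, macrophage sums 1196 to 3824 and 245 to 432, and their part was not tested. Library values are not per transcript length, so levels of different genes are not set against each other.

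**Figure D4:**
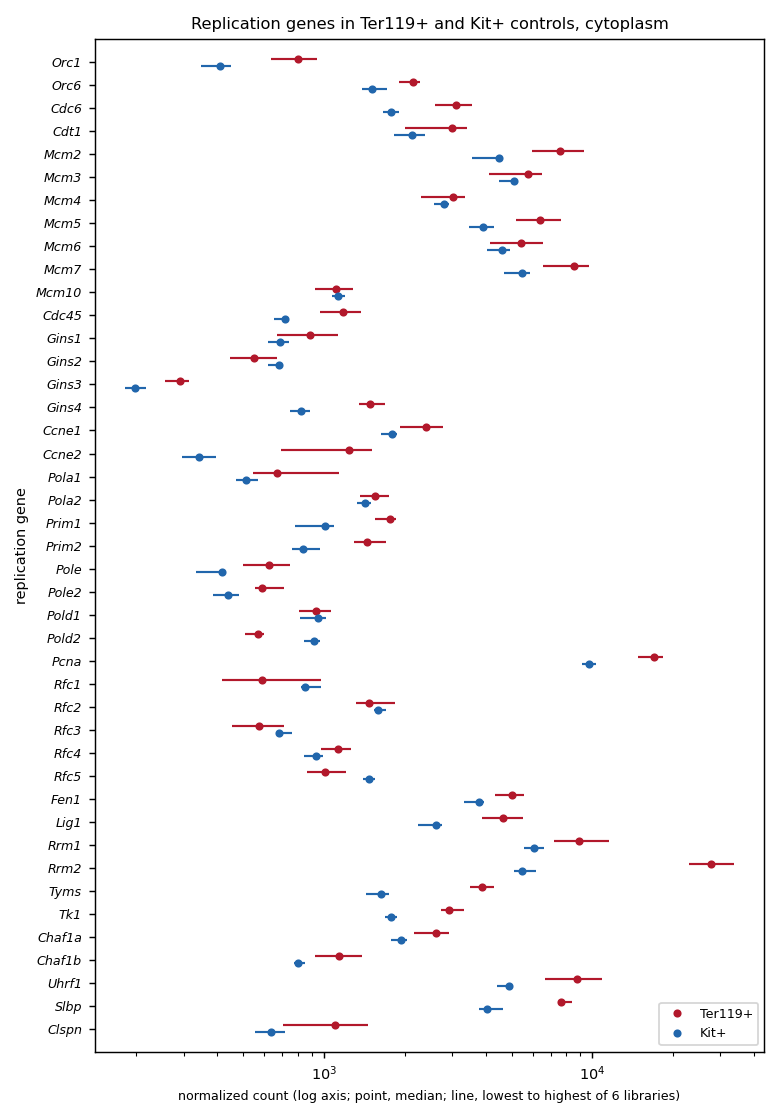
Normalized counts of the 43 genes in control cytoplasm (log axis), Ter119+ in red above Kit+ in blue for each gene, with the median (point) and range (line) of 6 libraries; normalized counts are not per transcript length, so only the 2 cell types of the same gene are comparable. Rrm2 shows the widest gap, and Pold2, Rfc1, Rfc3, Rfc5 and Gins2 are the genes called lower in Ter119+ cells.

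Genes of the same pathway outside the 43 were also mostly lower in the Rpl5 line. Of 51 other replication genes, 33 fell and 1 rose in Rpl5 Kit+ cells (median -0.46), where 16.4% of all genes fell and 20.8% rose, with the smallest p for E2f8 (-0.89), the deoxycytidine kinase gene Dck (-0.99), E2f1 (-0.87) and Timeless (-0.73). In Rps19 Kit+ cells 26 fell and 9 rose (median -0.26), where 26.1% of all genes fell and 27.6% rose, with the maintenance methyltransferase Dnmt1 (0.89), the licensing inhibitor Gmnn (-0.87), Orc5 (0.85) and the nuclease Dna2 (0.65) at the smallest p. In Ter119+ cells 35 fell and 5 rose in the libraries labelled VavCre Rpl5flox/+, where 30.1% of all genes fell and 35.3% rose, and 23 fell and 1 rose in VavCre Rps19flox/+, where 13.3% fell and 12.5% rose. Of 24 mitotic (G2/M) genes, 12 fell and 1 rose in Rpl5 Kit+ cells, 15 fell and 6 rose in Rps19 Kit+ cells, 22 fell in Rpl5 Ter119+ cells (median -1.79) and 16 in Rps19 Ter119+ cells (median -0.73). In control Ter119+ against Kit+ cells all 24 were higher, with a median of 1.52, and of the 51 other replication genes 24 were higher and 14 lower, with a median of 0.17, where 36.3% of all genes were higher and 44.0% lower.

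Fewer members were called in polysome RNA than in cytoplasm RNA. Depth differed by genotype in Kit+ polysomes of the Rps19 line, with 10.8, 24.4 and 37.6 M reads in VavCre Rps19flox/+, against 1.01, 7.17 and 1.83 M in Rps19flox/+. Lars2 took 0.382% to 4.51% of the reads in those VavCre libraries, against 10.3% to 54.9% in the controls. In VavCre Rps19flox/+ Kit+ polysomes 6 members were lower and 1 higher, where 3.68% of all genes were lower and 6.19% higher. The median change was -0.09 over the members and 1.11 over all genes. Lig1, DNA ligase I, had 1555, 1268 and 1268 normalized counts in VavCre Rps19flox/+, against 11818, 8234 and 8337 in Rps19flox/+, a log2 change of -2.77 ± 0.20 (SE, adjusted p = 7.19e-05). The highest VavCre library was far below the lowest control. Fen1 had 2032, 1905 and 1896 normalized counts in the VavCre libraries, against 6356, 4518 and 3944 in the controls (log2 change -1.31 ± 0.22, adjusted p = 0.00549). Uhrf1 had 2270.4, 2225 and 2407 normalized counts in the VavCre libraries, against 6875, 4412 and 5982 in the controls (log2 change -1.29 ± 0.24, adjusted p = 0.00816). Both were lower in every VavCre library. Pold1 (-1.48 ± 0.28), Chaf1a (-1.22) and Chaf1b (-1.52) were the others lower, and Rfc5 (2.17 ± 0.48) was higher. In the same libraries 6 of 10 p53 targets were higher and 5 of 16 granulocyte and monocyte markers lower, and the part of these, of depth and of Lars2 was not tested. In Ter119+ polysomes of the Rps19 line Lig1 was the 1 member called, where 0.575% of all genes were lower and 0.226% higher, with 1262, 1480.0 and 1404 normalized counts in VavCre Rps19flox/+, against 8355, 3413 and 7551 in Rps19flox/+ (log2 change -2.11 ± 0.38, adjusted p = 0.0311). Its replicate 2 control stood well below the other controls. Fits without 1 library gave 3 or 4 calls in Kit+ cells without a VavCre library, and 0 in Ter119+ cells without any 1 library but Rps19flox/+ replicate 2.

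Lars2, the mitochondrial leucyl-tRNA synthetase gene, took a large share of reads in some polysome libraries, and was singled out after its values were seen. It made up 4.51%, 0.511% and 0.382% of reads in VavCre Rps19flox/+ Kit+ polysomes, against 43%, 10.3% and 54.9% in Rps19flox/+. In Ter119+ polysomes it made up 0.306%, 1.57% and 0.552% in VavCre Rps19flox/+, against 5.71%, 3.22% and 17.3% in Rps19flox/+. In both cell types every Rps19flox/+ library had a higher share than every VavCre Rps19flox/+ library, as it had more Lig1, and the part of this in the Lig1 and Pold1 results was not tested. In the Ter119+ polysomes labelled VavCre Rpl5flox/+ Pold1 had 1633, 1534 and 1401 normalized counts, against 705 and 565 in Rpl5flox/+. Lig1 was also higher in each of these VavCre libraries than in either control, and neither gene was called. In the only VavCre Rpl5flox/+ Kit+ polysome library both genes were lower than in each Rpl5flox/+ library.

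In the Ter119+ polysomes labelled VavCre Rpl5flox/+ 11 members were lower and 0 higher, where 10.3% of all genes were lower and 2.96% higher, with medians of -1.78 over the members and -1.0 over all genes. Rrm2 had 4674, 4278 and 3654 normalized counts in the libraries labelled VavCre Rpl5flox/+, against 24264 and 19338 in Rpl5flox/+ (log2 change -2.37 ± 0.25, adjusted p = 0.00011). Pcna had 2940.1, 4073 and 4599 normalized counts in the VavCre libraries, against 17328 and 11081 in the controls (log2 change -1.86 ± 0.31, adjusted p = 0.002). Slbp had 1489, 1648 and 761 normalized counts in the VavCre libraries, against 7224 and 6006 in the controls (log2 change -2.40 ± 0.44, adjusted p = 0.00358). All 3 genes were lower in each VavCre library, as they were in the cytoplasm of the same genotypes. All 13 erythroid markers were lower in the same libraries, with sums of 5.55 to 12.2 M normalized counts against 38.2 to 73.3 M in Rpl5flox/+. Of 16 granulocyte and monocyte markers 7 were higher (105461 to 280450.0 against 15425 to 26210.2), and 4 of 10 p53 targets were higher; the part of these was not tested. The count was 1 after rescaling the libraries to each other, 2 and 4 without the Rpl5flox/+ replicate 1 and 2 library, and 19 without VavCre replicate 3, which had under 2 M reads. Lars2 made up 10.3%, 1.37% and 35.1% of reads in these VavCre libraries, against 4.47% and 0.165% in Rpl5flox/+, and its part was not tested. In the only VavCre Rpl5flox/+ Kit+ polysome library, Clspn and Pole2 had 0 reads. Clspn had 634, 531 and 532 normalized counts in Rpl5flox/+. With a floor of 3 reads, allowing for counting error alone, Clspn was at least 91.1-fold lower and Pole2 at least 53-fold lower. Polysome libraries of the same group could differ by more than counting error. Orc6 had 0, 830 and 860 normalized counts in Rps19flox/+ Kit+ polysomes, so these folds are not firm lower bounds. Clspn was the 1 member called, where 0.426% of all genes were lower and 1.39% higher. It rests on 1 library and was not called with the replicate numbers as a block (adjusted p = 0.104).

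**Figure D5:**
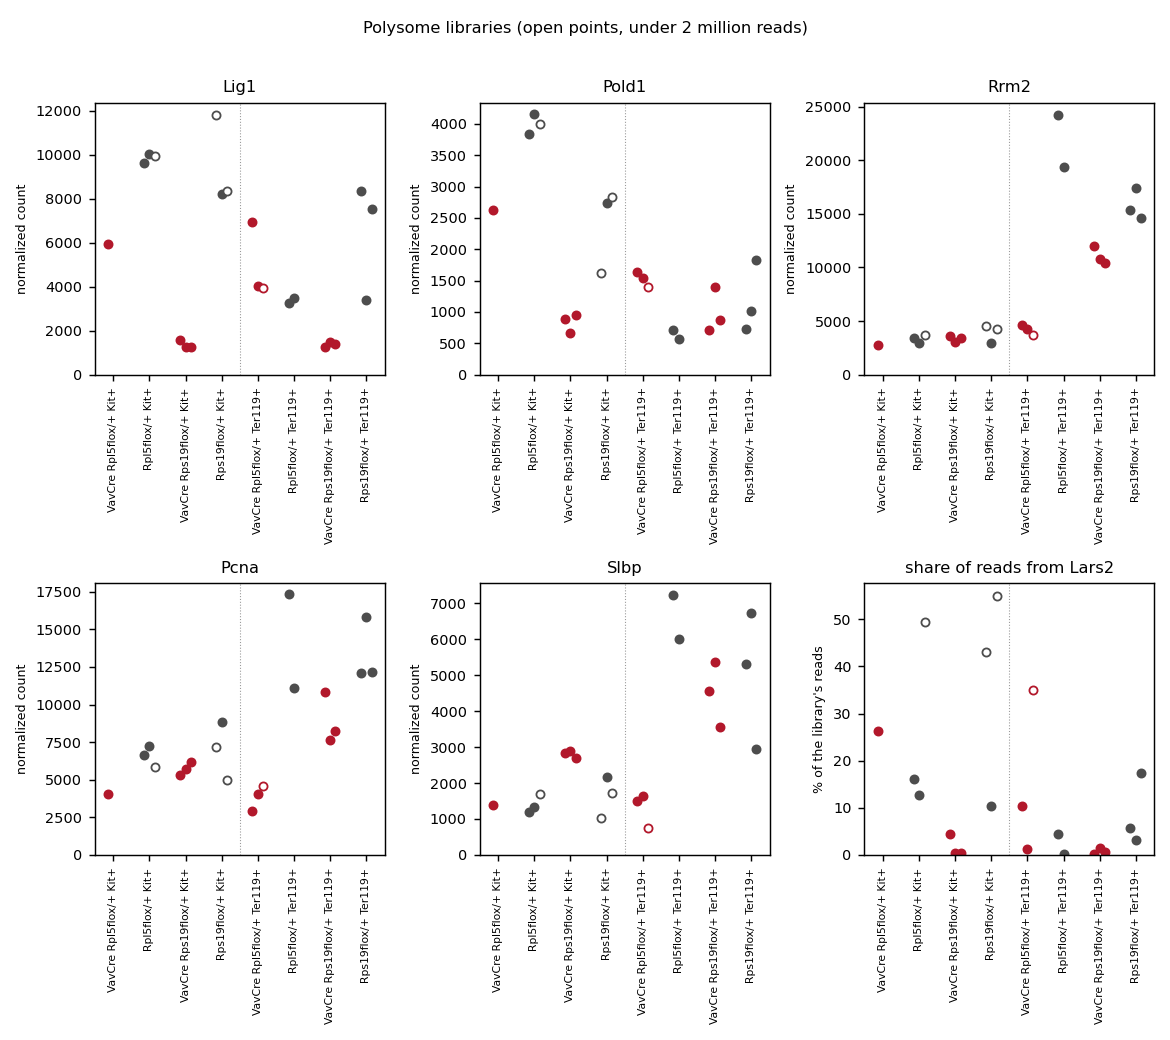
Normalized counts of Lig1, Pold1, Rrm2, Pcna and Slbp, and the percent of reads from Lars2, in each polysome library (points; open points have under 2 M reads), VavCre in red and control in grey, Kit+ left and Ter119+ right of the dotted line. Lig1 lies at 1268 to 1555 in VavCre Rps19flox/+ Kit+ polysomes against 8234 to 11818 in Rps19flox/+, and Lars2 is low in the same VavCre libraries.

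In control polysomes, Ter119+ cells had 8 members higher and 3 lower than Kit+ cells, where 17.6% of all genes were higher and 7.23% lower. Both counts were thus near the shares of all genes. The median log2 difference was 0.37 over the members and 0.54 over all genes. The genes named here are therefore described as single members, not as a shift of the whole list. Rrm2 had 14650.3 to 24264 (median 17415) normalized counts over the Ter119+ libraries and 2974 to 4528 (median 3561) over the Kit+ libraries (log2 difference 2.35 ± 0.17, adjusted p = 1.09e-09). Slbp had 2939.9 to 7224 (median 6006) in Ter119+ and 1038 to 2178 (median 1518) in Kit+ polysomes (log2 difference 1.90 ± 0.28, adjusted p = 2.99e-05). Both were also higher in Ter119+ cytoplasm. Pold1, the catalytic subunit of polymerase delta, was lower, at 565 to 1829 (median 732) against 1620.0 to 4151 (median 3337) (log2 difference -1.85 ± 0.30, adjusted p = 8.21e-05), as were Lig1 (-1.09) and Chaf1b (-0.93). In cytoplasm Lig1 (0.84) and Chaf1b (0.50) were higher in Ter119+ cells. The polysome count was 6 and 7 without the Rpl5flox/+ Ter119+ replicate 1 and 2 library, 4 after rescaling and 19 without libraries under 2 M reads.

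Polysome RNA was also set against cytoplasm RNA of the same pool. In control Kit+ cells 6 members were higher on polysomes and 15 lower, where 9.1% of all genes were higher and 49.2% lower, and the median difference was -0.39 over the members and -1.34 over all genes. Lig1 had 8234 to 11818 (median 9780.4) normalized counts on polysomes and 2246 to 2760.0 (median 2609) in cytoplasm (log2 difference 1.90 ± 0.13, adjusted p = 2.39e-05). Pold1 had 1620.0 to 4151 (median 3337) on polysomes and 813 to 1020.0 (median 947) in cytoplasm (log2 difference 1.69 ± 0.15, adjusted p = 8.82e-05). Chaf1b had 1331 to 2791 (median 2253) on polysomes and 773 to 853 (median 802) in cytoplasm (log2 difference 1.37 ± 0.18, adjusted p = 0.0005). For each of these 3 genes every control polysome library was above every control cytoplasm library. Lars2 made up 10.3% to 54.9% of reads in the control Kit+ polysome libraries, against 0.134% to 3.39% over all cytoplasm libraries, and its part was not tested. The direction of the list depends on scaling: rescaled libraries gave 11 higher and 4 lower, with medians of 0.31 over the members and -0.81 over all genes, and a fit of the control pools alone gave 6 higher and 4 lower. In control Ter119+ cells 0 members were called by limma, where 3.86% of all genes were; 9 had an unadjusted p under 0.05, and limma's voom fit of the recovered reads called 8.

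The change of polysome minus cytoplasm with VavCre was lower for 3 members and higher for 0 in Rps19 Kit+ cells, where 2.18% of all genes were lower and 3.07% higher. They were Lig1 (log2 difference -2.75 ± 0.25, adjusted p = 0.0056), Pold1 (log2 difference -2.16 ± 0.30, adjusted p = 0.0119) and Chaf1b (log2 difference -1.79 ± 0.35, adjusted p = 0.0287). The comparison reuses the control pools of the preceding one. Without any 1 VavCre pool 1 member was called, and without the Rps19flox/+ replicate 2 pool 7. In Ter119+ cells limma called 0 members in the Rps19 line (0.00918% of all genes) and 0 in the Rpl5 line (0.0184%), with 2 and 6 members at an unadjusted p under 0.05 and 0 by voom in both. Without the VavCre Rpl5flox/+ replicate 2 pool 3 members were called. The Rpl5 line in Kit+ cells had 1 VavCre polysome library and was not tested this way.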

How the data were processed

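Libraries were grouped by the labels' genotype, bead selection and fraction, and each replicate is a pool of cells of 1 genotype from an unstated number of livers, so p-values measure the spread between pools. The deposited table holds the authors' log2 values, already normalized and variance-stabilised, for 13449 genes and 45 libraries; the genome build was mm10, per the submitters' processing notes, and no aligner or counter is named there. Inverting the transform gave normalized counts, and dividing out each library's step gave whole reads for 100% of values (tolerance 1e-06), with a lowest deposited value of 2.92263 at 0 reads. The main test was R 4.3.3's limma package, version 3.58.1 (two-sided, moderated with an intensity trend), on the deposited log2 values of genes whose mean normalized count reached 10, with Benjamini-Hochberg adjustment over all genes tested. Genotype comparisons and tests between lines were fitted on all libraries of 1 cell type and fraction. Tests between cell types were fitted on all libraries of a fraction. Polysome against cytoplasm used differences within a pool. Library values are given for the 4 members of smallest adjusted p in each cytoplasm genotype comparison and test between lines, and for the 3 of smallest p elsewhere. Scripts were tested on simulated data. Members and lists were chosen with earlier results of these data known. A read of a member was worth 0.248 to 30.5 normalized counts on polysomes, which bounds what a count of 0 can show, and counting error is the only error in a floor.

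Replicate numbers were taken to pair pools only where every correlation of same-numbered deviations was over 0.1, which held in Rpl5 Kit+ cytoplasm (0.234 to 0.305) and Rpl5 Ter119+ cytoplasm (0.127 to 0.256). Between Ter119+ and Kit+ control cytoplasm, 5 of 6 same-numbered pairs were over 0.1 (range -0.0642 to 0.273). The main tests between cell types treated their pools as independent. Alternatives were a pseudocount of 1 on normalized counts, rescaled libraries, no minimum, a minimum of 50, voom on the recovered reads, the replicate block, only the groups compared, and leaving out shallow or single libraries.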

Additional observations from a re-analysis of the deposited data

Results flagged for a closer look

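The change with VavCre differed between the Rpl5 and the Rps19 line for 31 members in Kit+ cytoplasm and 25 in Ter119+ cytoplasm, by the test of the difference itself. Of all genes, 25.0% were lower and 23.2% higher by this test in Kit+ cells, and 20.9% and 20.5% in Ter119+ cells. In Kit+ cells the difference, Rpl5 change minus Rps19 change, was -1.45 for Ccne1, -1.39 for Mcm5, -1.19 for Mcm7 and -1.11 for Cdc6. In Ter119+ cells, where the Rpl5 side rests on the libraries labelled VavCre Rpl5flox/+, it was -1.50 for Rrm2, -1.01 for Cdc6, -1.28 for Orc1 and -0.82 for Fen1.

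The change also differed between Ter119+ and Kit+ cells of the same line, for 23 members in the Rpl5 line and 17 in the Rps19 line. Of all genes, 22.6% were lower and 25.8% higher by this test in the Rpl5 line, and 8.35% and 3.93% in the Rps19 line. The Rpl5 count, taken in either direction, was thus near the share of all genes. The Ter119+ change minus the Kit+ change in the Rpl5 line was -1.61 for Rrm2, -1.03 for Tyms and -0.82 for Slbp. In the Rps19 line it was -0.92 for Mcm5, -0.96 for Cdt1 and -0.72 for Chaf1b. Each test shares its libraries with the comparisons within a line, and no group of libraries was large enough for a test of single outlying libraries.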

How the results depend on the processing

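Counts of members under alternative settings, here and above, are given without the share of all genes called under the same setting. They show how the number of calls moved, not whether the members moved more than other genes. In the 4 cytoplasm genotype comparisons every alternative kept the members' count of calls within 1.5 times, apart from the left-out libraries named here. Leaving out 1 library at a time gave 34 to 37 calls in Rpl5 Kit+, 21 to 25 in Rps19 Kit+, 36 to 39 in Rpl5 Ter119+ and 12 to 21 in Rps19 Ter119+; without Rps19flox/+ Kit+ replicate 1 the 21 calls were 11 higher and 10 lower. The range was 27 to 32 between lines in Kit+ cells, 21 to 28 in Ter119+ cells, 19 to 29 between cell types in the Rpl5 line and 10 to 18 in the Rps19 line, and 37 to 38 between control cell types. Over all alternatives 884 of the values of single members kept direction and call, 21 gained a call and 20 lost it.

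Polysome counts moved most. Leaving out 1 library gave 1 to 2 calls in Rpl5 Kit+, 3 to 9 in Rps19 Kit+, 2 to 19 in Rpl5 Ter119+, 0 to 1 in Rps19 Ter119+, 6 to 13 between control cell types, 1 to 7 for the Rps19 Kit+ change of polysome minus cytoplasm and 0 to 3 for the Rpl5 Ter119+ one. Without libraries under 2 M reads the counts were 10 in Rpl5 Kit+, 12 in Rps19 Kit+, 19 in Rpl5 Ter119+, 5 in Rps19 Ter119+, 19 between control cell types and 10 for polysome against cytoplasm in control Ter119+ cells. Rescaled libraries gave 1 in Rpl5 Ter119+, 0 in Rps19 Ter119+, 4 between control cell types, 15 (11 higher, 4 lower) for polysome against cytoplasm in control Kit+ cells and 6 for the Rps19 Kit+ change of polysome minus cytoplasm. With no minimum the counts were 2 in Rpl5 Kit+ and 6 for that Rps19 Kit+ change, with voom 3 in Rps19 Ter119+, 8 in control Ter119+ polysome against cytoplasm and 8 for the Rps19 Kit+ change, and with only the groups compared 4 in Rpl5 Ter119+ and 3 in Rps19 Ter119+. A fit of the control pools alone, chosen after seeing the data, gave 10 (6 higher, 4 lower) for control Kit+ polysome against cytoplasm. The cause of these moves was not tested. The Rpl5 Kit+ polysome comparison could not be fitted without its only VavCre library.

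With the replicate block the counts were 37 in Rpl5 Kit+ and 38 in Rpl5 Ter119+ cytoplasm, where numbers pair the pools, and elsewhere 26 in Rps19 Kit+, 27 in Rps19 Ter119+, 0 in Rpl5 Kit+ polysomes, 18 in Rpl5 Ter119+ polysomes and 3 in Rps19 Ter119+ polysomes. With no replicate block, the fits within pools gave 9 in control Ter119+ cells and 12 for the Rps19 Kit+ change. Depth limits what a member at 0 reads in a polysome library can show, since it gives only a bound.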
